A study of Homo sapiens with 6 samples.

Results

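Pseudogenes are copies of genes that carry, or were annotated as carrying, damage that keeps them from making the parent protein. Of the 5187 genes measured in this series, 211 have a GENCODE release 29 gene type that contains the word pseudogene, and these 211 genes are described here together with their parent genes. By that annotation 125 are processed, 73 are unprocessed and 13 are unitary or polymorphic. The 6 RNA-seq libraries came from Huh7, an established human hepatocellular carcinoma line. Control libraries (n = 3) came from untreated cells and GABA libraries (n = 3) from cells given gamma-aminobutyric acid for 24 h. All the cells grew in the same serum-containing medium, the dose is not given in the labels, and each group's libraries are labelled as biological replicates. The comparison asks which pseudogene transcripts rose or fell with GABA, whether processed and unprocessed copies differed in this, and whether each copy moved in the direction of its parent gene.

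A processed pseudogene arises when a spliced mRNA is copied back into DNA and inserted elsewhere in the genome, so it has no introns and usually lacks the promoter of its parent. An unprocessed pseudogene is a duplicated piece of a gene that keeps exons and introns, and often lies near its parent. A unitary pseudogene is a gene that lost its function in place and has no working copy in the genome, and a polymorphic one is intact in some people. Highly expressed housekeeping genes, ribosomal protein genes first among them, have left many processed copies. Because a copy is so similar to its parent, a short sequencing read can fit both, and the count of either depends on how such reads were assigned. How the reads of these libraries were assigned is not given in the sources used here.

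The members showed these features. Among the 125 processed members, 104 had a single exon block, against 9 of the 73 unprocessed members, and the median exon length was 681 bases for processed and 2080 bases for unprocessed members. A parent gene could be read from the symbol (FTH1 for FTH1P16) for 134 members, of which 97 were processed and 36 unprocessed. It lay on the same chromosome as the copy for 19 of those 36 unprocessed members and for 4 of the 97 processed ones. A search of the member transcripts against GENCODE release 29 transcripts gave a parent by sequence for 176 members, with a median identity of 94.8%, and it named the same parent as the symbol for 124. Each member transcript was also divided into overlapping windows of 50 bases, and the share of windows found unchanged in a transcript of another gene was taken as its shared sequence. That share was at least 50% in 68 members, 100% in 6 and 0% in 27. The exons of 59 members overlapped an exon of another annotated gene on either strand, and whether the counting used the strand is not given in the sources used here.

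Counts on the listed genes summed to between 7702666 and 8392945 per library, and these sums are not library depths because the files hold a part of the 58735 annotated genes. The list follows the comparison: the smallest absolute log2 fold change among tested genes was 0.12, and a gene's position in the files and its p-value had a Spearman correlation of 0.93 across genes, which are not independent replicates. Of the 4981 genes that passed the filter on low counts, 98.7% were called changed by edgeR's quasi-likelihood test at an adjusted p of 0.05, with 47.6% higher and 51.2% lower with GABA, so a call by itself says little about any member. None of the 12 hepatocyte markers looked up was in the files, so the identity of the cells could not be checked from them. Of the markers of other cells looked up, 3 of 5 kidney and cervix line markers were listed and higher with GABA by edgeR (PAX2 0.87, HOXB7 0.26 and HOXB9 0.22 on the log2 scale), and of 4 fibroblast markers COL3A1 was higher (0.66) and PDGFRB lower (-0.99). None of the immune or endothelial markers was listed, and any part of other cells in the results was not tested. Pseudogenes took 0.729% to 0.776% of the listed counts in control libraries and 0.733% to 0.746% in GABA libraries, and these ranges overlapped. In bulk RNA, fewer cells of a kind and less RNA per cell cannot be told apart. Control replicate 3 stood apart in part of the set. In 11 of the 99 processed members tested it was more than 1.5 times as high as both other control libraries, against 51 of the 4981 genes tested. Control replicate 2 was as far above both others in 7 processed members and in 64 of all genes tested. Each of these 2 libraries was so in 12 of all 170 tested pseudogenes. Control replicate 3 was as far below both others in 7 of the 59 unprocessed members (11.9%) and in 14 of all 170 tested pseudogenes, against 134 of all genes tested. Its part in the class counts was not tested beyond leaving it out, and it held 9.11% mitochondrially encoded counts against 7.74% and 7.14% in control replicates 1 and 2. Levels below are in CPM, which is counts per 1000000 of the listed total after TMM scaling (a correction for composition between libraries), with the SD over 3 libraries. Fold changes are log2 of GABA over control with a standard error (SE). The SE was worked back from edgeR's test, as the absolute log2 fold change over the square root of the F statistic. Counting error grows as counts fall, so values under about 1 CPM rest on fewer than 10 reads in a library.

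Pseudogenes as a set moved in both directions in equal number. Of the 170 that passed the filter, 85 were higher and 85 lower with GABA by edgeR, all 170 were called against 98.7% of all genes tested, and 41 had too few reads to be tested. Of the processed members 46 were higher and 53 lower, with a median log2 fold change of -0.27. That order did not hold throughout: with DESeq2 61 were higher and 57 lower, without GABA replicate 3 45 and 43, and among processed members under 50% shared windows 31 and 27, with a median of 0.55. Of the unprocessed members 32 were higher and 27 lower, with a median of 0.45. This order turned to 14 higher and 16 lower among those without exon overlap, and to 7 and 11 at an absolute log2 fold change of 1 or more. All genes tested had a median of -0.18. Of the unprocessed members that GENCODE marks as transcribed 23 were higher and 13 lower, and of those not so marked 9 were higher and 14 lower. Of the unitary and polymorphic members 7 were higher and 5 lower. No difference between classes was tested, because members of a class share parents and sequence.

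The size of the changes was larger than among all genes, and the level of the members went along with it. The median absolute log2 fold change was 0.87 for pseudogenes and 0.40 for all genes tested, and 67 of the 170 members (39.4%) were called with an absolute log2 fold change of at least 1, against 10.3% of all genes tested. The other noncoding genes in the files had nearly the same values, with a median of 0.88 and 40.2% at 1 or more, and a median level of 7.92 CPM. The levels of pseudogenes were lower than those of all genes as well, with a median of 10.1 CPM against 78.5 CPM. Within ranges of level the medians lay closer: below 2 CPM the median absolute change was 1.77 for pseudogenes and 1.62 for all genes, from 2 to 10 CPM 1.01 and 0.98, from 10 to 50 CPM 0.69 and 0.53, and from 50 CPM upward 0.37 and 0.31. The libraries of the groups did not overlap for 151 members (88.8%), a smaller share than the 92.5% of all genes tested. The plot of fold change against level shows the widest fold changes at the lowest levels.

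**Figure D1:**
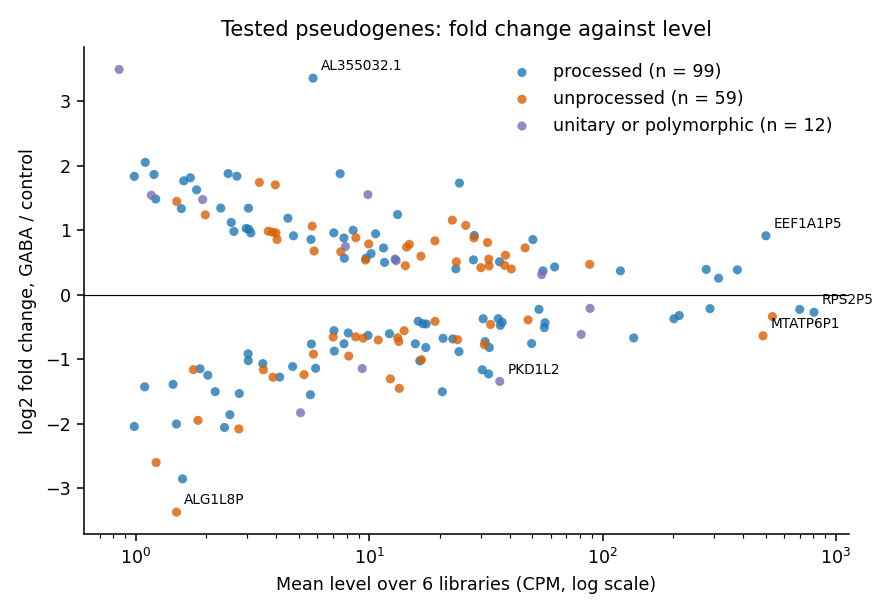
Each point is 1 of the 170 tested pseudogenes, with the mean CPM over 6 libraries on a log scale on the horizontal axis and the log2 fold change of GABA over control on the vertical axis, coloured by class (99 processed, 59 unprocessed, 12 unitary or polymorphic). Points spread from -3.37 to 3.49 at low levels and over a narrower range at the highest levels. From 50 CPM upward the median absolute change was 0.37, and EEF1A1P5 stood at 0.92. The gap around 0 reflects the selection of the listed genes.

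The most abundant members were copies of ribosomal protein genes and of mitochondrial genes. Per kilobase of exon, RPS28P7 stood at 1324 CPM, RPL36AP37 at 978, RPL9P9 at 975, RPS2P5 at 916, MTATP6P1 at 715, RPL41P1 at 621, MTND2P28 at 512 and RPS2P46 at 428. Ribosomal proteins build the particle that translates mRNA, and their genes are among the most active in any cell. Of 31 listed copies with a ribosomal protein parent by symbol, 10 were higher, 15 lower and 6 not tested. Of the 31 listed ribosomal protein genes themselves, 3 were higher, 24 lower and 4 did not pass, with a median log2 fold change of -0.27. The copies thus had both directions where the genes were mostly lower, and 40% of the called copies were higher against 48.2% of all called genes. No fold change in either set changed sign under the 4 other scalings. The ribosomal protein genes called lower numbered 19 with DESeq2 size factors and 23 to 25 with the other scalings.

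RPL36A, a protein of the large ribosomal subunit, and its processed copy RPL36AP37 moved in opposite directions. The copy (chr11:16974693-16975013, GRCh38/hg38, minus strand) lies within the span of PLEKHA7. RPL36AP37 stood at 274, 287 and 296 CPM in the control libraries and at 348, 361 and 317 CPM in the GABA libraries, and the groups did not overlap. Its log2 fold change was 0.26 (SE 0.07, edgeR adjusted p = 0.0057). RPL36A stood at 24.5, 24.2 and 26.3 CPM in the control and at 19.9, 19.6 and 20.1 CPM with GABA. The log2 fold change of RPL36A was -0.33 (SE 0.12, edgeR adjusted p = 0.0177). That call was lost without GABA replicate 2 (edgeR adjusted p = 0.0516) and with DESeq2 (-0.29, DESeq2 adjusted p = 0.0729). The copy therefore held 1119%, 1186% and 1125% of the parent's counts in the control libraries and 1746%, 1837% and 1582% with GABA (exact two-sided permutation p = 0.1, the smallest that 3 against 3 can give). All 318 aligned coding bases of the copy were identical to the parent, and 100% of its 50-base windows were also in transcripts of other genes, so reads of this sequence cannot be told apart. The annotated span of RPL36A also overlaps a read-through gene, RPL36A-HNRNPH2, on the same strand.

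RPS28P7, a copy of the small-subunit gene RPS28, repeated this pattern with more spread. It stood at 223, 306 and 192 CPM in the control and at 301, 315 and 331 CPM in the GABA libraries, and control replicate 2 lay inside the range of the GABA group. The log2 fold change was 0.39 (SE 0.13, edgeR adjusted p = 0.0136). Without control replicate 3 it was 0.26 and the edgeR call was lost (adjusted p = 0.168), as it was without GABA replicate 3 (adjusted p = 0.0522), and without control replicate 2 it was 0.60. RPS28 fell from 394 ± 26.4 to 312 ± 31.2 CPM (log2 fold change -0.33, SE 0.08, edgeR adjusted p = 0.0037). Here too the copy was identical to the parent over all 207 coding bases and shared 100% of its windows.

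RPS2, another small-subunit protein, was not among the listed genes, but both of its tested copies were abundant and they moved apart. RPS2P5 (chr12:118246084-118246962) stood at 822, 966 and 854 CPM in the control and at 771, 775 and 644 CPM in the GABA libraries. RPS2P46 (chr17:19445970-19446852) stood at 329, 329 and 325 CPM in the control and at 460, 436 and 389 CPM with GABA. Neither copy's groups overlapped, and the former was lower and the latter higher with GABA. The log2 fold changes were -0.27 (SE 0.08, edgeR adjusted p = 0.0104) and 0.39 (SE 0.07, edgeR adjusted p = 0.000746), and the call for RPS2P5 was lost without GABA replicate 3 (adjusted p = 0.0557). Each copy differed from the parent at 11 of 879 aligned coding bases, and the part of RPS2 reads in their counts was not tested.

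Other ribosomal protein copies also split by copy. RPL9P9 fell from 754 ± 15.7 to 644 ± 36.0 CPM (log2 fold change -0.23, SE 0.06, edgeR adjusted p = 0.00588), while RPL9P29, with 0% shared windows, rose from 2.73 ± 0.611 to 6.23 ± 0.542 CPM (1.19, SE 0.24, adjusted p = 0.00138). The aligned coding bases of RPL9P9 were 99.8% identical to RPL9, and the part of RPL9 reads in its count was not tested. RPS7P10 fell (-1.02, SE 0.28, edgeR adjusted p = 0.00566), with control replicate 3 at 33.7 CPM against 15.8 and 16.7 in the others and a log2 fold change of -0.59 without it, and RPS7P11 rose (0.37, SE 0.11, adjusted p = 0.00764). RPL41P1, identical to the 75 coding bases of RPL41, the gene of a very short large-subunit protein, was higher in each GABA library (62.6, 77.6 and 54.1 CPM) than in any control library (25.7, 38.7 and 42.9 CPM). Its log2 fold change was 0.86 (SE 0.17, edgeR adjusted p = 0.00136). RPSAP52, a copy of the laminin receptor and ribosomal protein gene RPSA, rose from 8.67 ± 1.70 to 14.4 ± 1.97 CPM (0.73, SE 0.19, edgeR adjusted p = 0.00485), while RPSA fell from 4149 ± 209 to 3454 ± 161 CPM (-0.26, SE 0.06, adjusted p = 0.0034). The other tested copy, RPSAP19, fell (-0.59, SE 0.24, edgeR adjusted p = 0.0329), a call lost without control replicate 3 (-0.31, adjusted p = 0.193), GABA replicate 1 or GABA replicate 2. It shared 64.9% of its windows with other transcripts and RPSAP52 1.81%. Across the 12 parents by sequence with at least 2 tested copies (28 copies), all copies moved one way for 4 parents and in both directions for 8.

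AL355032.1, by sequence a copy of RPL26, the gene of a large-subunit protein, at chr14:101677943-101678380, had 2, 7 and 15 reads in the control and 45, 85 and 124 reads in the GABA libraries, and its log2 fold change of 3.36 (SE 0.48, edgeR adjusted p = 0.000153) was the largest among members with a mean of at least 1 CPM. RPL26 is not among the listed genes. The copy differed from RPL26 at 12 of 435 coding bases and its aligned reading frame held 1 stop codon. Bases 88 to 177 of the coding sequence, like the other sequences below taken from GENCODE release 29 transcripts on GRCh38/hg38, are shown because they hold 5 of those 12 differences, in capitals:
RPL26: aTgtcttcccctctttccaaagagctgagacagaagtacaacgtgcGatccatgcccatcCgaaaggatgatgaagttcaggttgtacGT
AL355032.1: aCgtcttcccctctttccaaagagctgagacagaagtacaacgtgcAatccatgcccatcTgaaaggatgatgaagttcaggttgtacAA

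Ferritin copies gave the clearest contrast within a family. FTH1 encodes the heavy chain of ferritin, the iron-storing shell whose light chain comes from FTL. FTH1 stood at 2489, 2649 and 1666 CPM in the control and at 1744, 1694 and 1729 CPM in the GABA libraries, so control replicate 3 lay below all 3 GABA libraries. The log2 fold change was -0.40 (SE 0.13, edgeR adjusted p = 0.0126) and -0.58 without that library. FTH1P7 stood at 19.3, 14.1 and 57.7 CPM in the control and at 10.8, 12.5 and 8.85 CPM with GABA. FTH1P8 stood at 7.04, 6.6 and 10.7 CPM in the control and at 4.24, 3.36 and 3.42 CPM with GABA. FTH1P16 had 4, 12 and 9 reads in the control and 24, 34 and 36 reads with GABA. The groups of each copy did not overlap, FTH1P7 and FTH1P8 were lower with GABA, and FTH1P16 was higher. Control replicate 3, lowest of the controls for FTH1, was highest for FTH1P7 and FTH1P8. The log2 fold changes were -1.50 (SE 0.44, edgeR adjusted p = 0.00906) for FTH1P7, -1.14 (SE 0.25, adjusted p = 0.00206) for FTH1P8 and 1.88 (SE 0.37, adjusted p = 0.00103) for FTH1P16, and without control replicate 3 that of FTH1P7 was -0.65 (adjusted p = 0.00251). FTH1P16 held 0.049% ± 0.026 of FTH1's counts in the control and 0.227% ± 0.0442 in the GABA libraries (SD, n = 3 each).

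The 3 ferritin copies lie on chromosomes 13, X and 11, and differ from FTH1 at 15 of 549, 10 of 513 and 19 of 549 aligned coding bases in the order FTH1P7, FTH1P8 and FTH1P16. The aligned frame of FTH1P16 was intact, while FTH1P7 had 1 in-frame stop codon and FTH1P8 had 1 stop codon and 2 frameshifting gaps. Bases 424 to 513 of the FTH1 coding sequence are shown for FTH1, FTH1P8 and FTH1P16, because these copies moved in opposite directions. FTH1P8 differs there from FTH1 at 2 bases and FTH1P16 at 6, and a change from G to A is found in both. Capitals in a copy are bases that differ from FTH1, and capitals in the FTH1 line are bases at which any of the 3 copies differs:
FTH1: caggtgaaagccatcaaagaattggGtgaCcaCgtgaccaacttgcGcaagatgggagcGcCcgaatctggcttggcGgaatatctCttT
FTH1P8: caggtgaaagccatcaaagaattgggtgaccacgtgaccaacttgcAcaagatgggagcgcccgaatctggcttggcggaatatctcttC
FTH1P16: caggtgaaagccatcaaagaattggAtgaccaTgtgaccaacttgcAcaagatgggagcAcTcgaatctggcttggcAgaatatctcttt
FTLP12, a distant copy of FTL with 67.2% identity and 0% shared windows, also rose while its parent fell. It had 11, 6 and 4 reads in the control and 22, 25 and 19 reads in the GABA libraries (log2 fold change 1.63, SE 0.38, edgeR adjusted p = 0.00275). FTL went from 7876 ± 229 to 5828 ± 169 CPM (-0.43, SE 0.06, edgeR adjusted p = 0.000124).

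**Figure D2:**
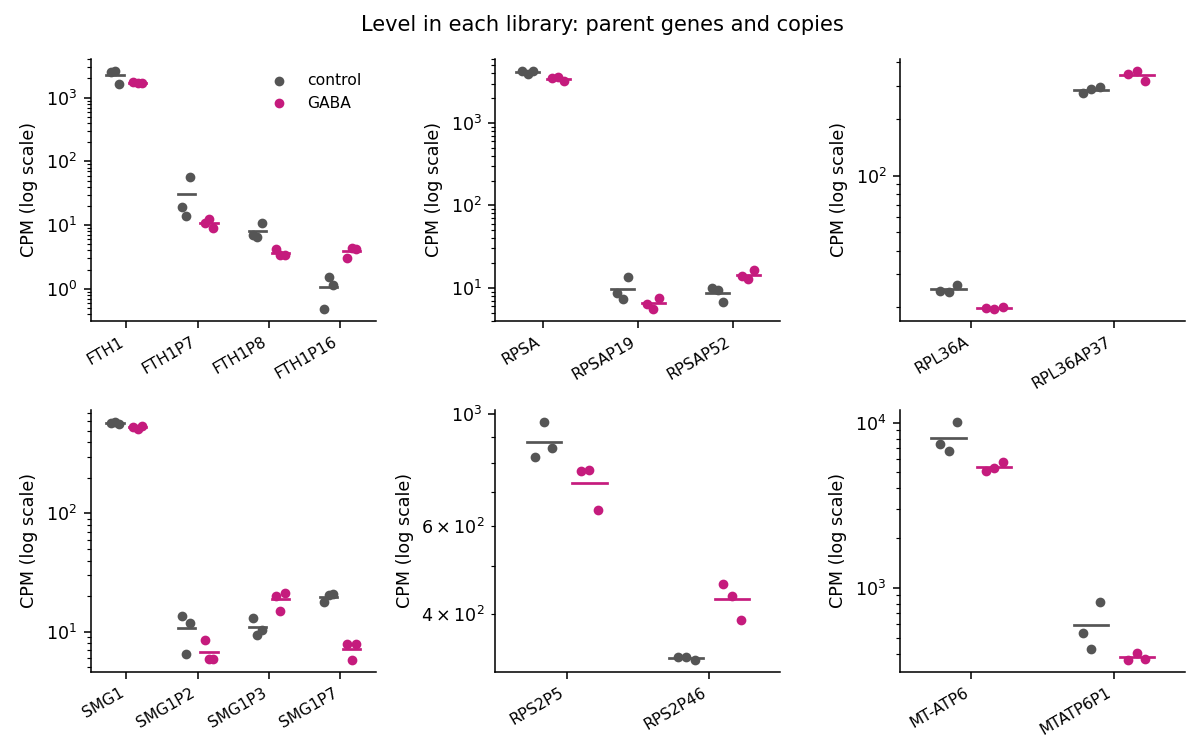
Each point is the CPM of 1 library on a log scale for 6 families of parent genes and copies, with control libraries in grey and GABA libraries in magenta and a line at each group mean of 3 libraries. FTH1P16, RPSAP52, RPL36AP37, SMG1P3 and RPS2P46 have higher means with GABA, whereas the other copies and the parent genes drawn have lower means. RPS2 is not drawn because it is not among the listed genes.

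Of 4 listed copies of mitochondrial genes, the 3 tested fell, and the 2 whose parents are listed, MTATP6P1 and MTND2P28, fell with them. These unprocessed members are stretches of mitochondrial DNA inserted in chromosome 1, and their parents encode subunits of ATP synthase and of respiratory complexes. MTATP6P1 shared 46.7% of its windows with transcripts of other genes and MTND2P28 43.5%. The part of reads from the mitochondrial genes in the counts of these copies was not tested. MTATP6P1 stood at 531, 427 and 820 CPM in the control and at 367, 404 and 373 CPM with GABA, and MT-ATP6 at 7413, 6707 and 10123 CPM and at 5072, 5297 and 5737 CPM. Control replicate 3 was highest for both. The log2 fold change was -0.64 (SE 0.18, edgeR adjusted p = 0.00748) for the copy and -0.59 (SE 0.12, adjusted p = 0.00143) for the gene, and -0.33 and -0.40 without control replicate 3. MTATP6P1 held 7.21% ± 0.863 of the counts of MT-ATP6 in the control and 7.12% ± 0.578 with GABA (exact two-sided permutation p = 1). MTND2P28 held 8.67% ± 0.344 of the counts of MT-ND2 in the control and 8.80% ± 0.383 with GABA (exact two-sided permutation p = 0.9), with log2 fold changes of -0.34 for the copy (SE 0.11, edgeR adjusted p = 0.0131, lost without GABA replicate 3 at 0.0538, and -0.17 without control replicate 3) and -0.35 for the gene (SE 0.10, adjusted p = 0.00572, and -0.22 without control replicate 3). MTCO1P12 also fell (-0.39, SE 0.16, edgeR adjusted p = 0.0335), a call lost with DESeq2 size factors (adjusted p = 0.0584), without GABA replicate 3 (-0.21, adjusted p = 0.167) and without control replicate 2 (-0.27, adjusted p = 0.116). MTCO1P11 had too few reads for the test, with none in the control and 2, 3 and 5 in the GABA libraries, and was called higher with no filter (edgeR adjusted p = 0.0103) and with DESeq2 (adjusted p = 0.0266). Of the 15 mitochondrially encoded genes listed, 4 were higher, 8 lower and 3 did not pass. MTATP6P1 differs from MT-ATP6 at 10 of 678 coding bases, 4 of them in the 90 bases shown (103 to 192, differing bases in capitals):
MT-ATP6: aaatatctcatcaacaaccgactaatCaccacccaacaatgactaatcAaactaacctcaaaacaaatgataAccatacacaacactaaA
MTATP6P1: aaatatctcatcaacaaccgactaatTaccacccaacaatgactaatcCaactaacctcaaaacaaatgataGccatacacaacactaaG

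Among unprocessed members, the copies of SMG1 differed most from each other. SMG1 is the kinase that phosphorylates UPF1 in nonsense-mediated decay, the pathway that removes mRNAs with early stop codons, and chromosome 16 carries many partial duplicates of it. SMG1P7 stood at 17.8, 20.3 and 21.0 CPM in the control and at 7.84, 5.81 and 7.91 CPM in the GABA libraries. SMG1P3 stood at 13.1, 9.32 and 10.3 CPM in the control and at 19.9, 15.1 and 21.4 CPM with GABA. Both pairs of groups were apart, in opposite directions. Their log2 fold changes were -1.45 (SE 0.17, edgeR adjusted p = 4.34e-05) and 0.78 (SE 0.18, adjusted p = 0.00268). SMG1P2 overlapped between groups, at 13.7, 6.47 and 11.8 against 8.61, 5.94 and 5.90 CPM (-0.65, SE 0.27, edgeR adjusted p = 0.0337), and its call was lost without control replicate 1, GABA replicate 2 or GABA replicate 3 (adjusted p between 0.104 and 0.165, and a log2 fold change of -0.43 without control replicate 1). SMG1 itself went from 581 ± 14.0 to 533 ± 15.6 CPM, which did not pass (-0.12, SE 0.06, edgeR adjusted p = 0.0547). The shared windows amounted to 96.3% in SMG1P2, 86.2% in SMG1P3 and 36.1% in SMG1P7. In bases 3806 to 3895 of the SMG1 coding sequence, shown with differing bases in capitals, SMG1P2 and SMG1P3 have the same letters, and SMG1P7 is set apart:
SMG1: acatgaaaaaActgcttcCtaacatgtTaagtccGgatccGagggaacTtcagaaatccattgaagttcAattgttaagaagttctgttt
SMG1P2: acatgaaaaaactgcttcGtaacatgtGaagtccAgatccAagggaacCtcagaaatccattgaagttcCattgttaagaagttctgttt
SMG1P3: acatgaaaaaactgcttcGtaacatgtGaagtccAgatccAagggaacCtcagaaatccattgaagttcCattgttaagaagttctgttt
SMG1P7: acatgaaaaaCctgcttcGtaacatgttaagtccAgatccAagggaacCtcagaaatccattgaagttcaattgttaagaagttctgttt

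Copies of ALG1, the mannosyltransferase that adds the first mannose to the lipid-linked sugar of N-glycosylation, fell in all 3 cases tested. ALG1L8P had 19, 26 and 20 reads in the control and 1, 2 and 3 reads in the GABA libraries, the steepest fall of any tested member (log2 fold change -3.37, SE 0.46, edgeR adjusted p = 0.000112). ALG1L7P had 14, 21 and 15 reads against 5, 0 and 3 (-2.6, SE 0.57, edgeR adjusted p = 0.002). ALG1L6P, the most abundant, went from 17.5 ± 2.08 to 7.09 ± 0.757 CPM (-1.30, SE 0.17, edgeR adjusted p = 8.36e-05). These 3 copies lie on chromosomes 11, 4 and 3, are 94.8% to 95.1% identical to ALG1 and share 33.3% to 47.7% of their windows with other transcripts. ALG1 is not among the listed genes. ALG1L10P, whose closest coding transcript is ALG1L2, fell as well (-1.16, SE 0.39, edgeR adjusted p = 0.0143), a call lost without GABA replicate 2.

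Copies of GTF2I, which encodes a general transcription factor of the Williams syndrome region, went both ways. GTF2IP1 fell from 39.3 ± 5.67 to 23.0 ± 2.31 CPM (log2 fold change -0.77, SE 0.13, edgeR adjusted p = 0.000497). GTF2IP14 rose (0.67, SE 0.20, edgeR adjusted p = 0.0101), as did AL133216.2 (0.81, SE 0.12, adjusted p = 0.000184), both GTF2I copies by sequence. GTF2IP13, whose symbol names the same parent but whose closest coding transcript is of BET1L, rose too (0.61, SE 0.10, edgeR adjusted p = 0.000432). GTF2IP1 is 99.8% identical to GTF2I with 96.5% shared windows, while GTF2IP14 shares 8.75% and AL133216.2 35.6%.

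The remaining members with the largest changes were mostly of low level. Besides those above, the largest rises among members that averaged 1 CPM or more and whose groups did not overlap were RPL29P30 (2.05), FAM27B (1.88), YBX1P2 (1.87, a copy of the RNA-binding cold shock gene YBX1), AC091868.1 (1.84), AC093582.1 (1.82) and AL139100.1 (1.77, by sequence a copy of RPS10), each with an edgeR adjusted p of 0.00937 or less. RPL29P30 had 8, 0 and 2 reads in the control and its log2 fold change was 3.65 without control replicate 1. By the same rule the largest falls were AC108463.1 (-2.86), NMRAL2P (-2.08), BEND3P3 (-2.06), ATG12P1 (-2.0), CES5AP1 (-1.95, a copy of a carboxylesterase gene) and CDC42P6 (-1.86, a copy of the gene of the cell polarity GTPase CDC42), with edgeR adjusted p of 0.00337 or less. NMRAL2P, an unprocessed copy that is itself known as a target of the oxidative stress factor NRF2, had 26, 41 and 39 reads in the control and 5, 13 and 7 reads with GABA. ATG12P1 fell with its parent ATG12, whose protein is conjugated to ATG5 in autophagy and whose level went from 170 ± 19.6 to 134 ± 5.07 CPM (-0.35, SE 0.09, edgeR adjusted p = 0.00371). At higher level, EEF1A1P5, a copy of the translation elongation factor gene EEF1A1 with an intact frame and 89.6% shared windows, rose from 305, 427 and 310 CPM to 564, 560 and 840 CPM (0.92, SE 0.16, edgeR adjusted p = 0.00049), a call lost without control replicate 3 (adjusted p = 0.066). EEF1A1 is not among the listed genes.

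Unitary and polymorphic members have no parent in the same sense, and 12 of the 13 were tested. PKD1L2, a polycystin-like gene that is intact in some people, fell from 52.0 ± 7.19 to 20.5 ± 2.90 CPM (log2 fold change -1.34, SE 0.14, edgeR adjusted p = 1.87e-05). MYH16, a jaw-muscle myosin gene inactivated in the human lineage, rose from 4.99 ± 2.14 to 14.7 ± 2.78 CPM (1.55, SE 0.26, edgeR adjusted p = 0.000459). FER1L4 fell from 7.92 ± 2.60 to 2.23 ± 0.711 CPM (-1.83, SE 0.31, edgeR adjusted p = 0.00048), and AHSA2P from 97.9 ± 2.39 to 64.0 ± 2.79 CPM (-0.61, SE 0.08, adjusted p = 0.000103). AL109809.1 had the highest log2 fold change of all tested members, 3.49 (SE 0.63, edgeR adjusted p = 0.000689), on 2, 1 and 0 control reads against 10, 11 and 17 reads.

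Set beside their parents, pseudogenes mostly had the parent's direction and a larger change. In 51 pairs both the copy and its parent by symbol were tested, over 44 parents, of which 33 had a log2 fold change below 0. Both genes were called in 45 pairs, 34 in the same direction (25 lower, 9 higher) and 11 in opposite directions. Leaving out 1 library moved these counts: 21 pairs had the same direction without GABA replicate 1 and 22 without GABA replicate 3, and 5 pairs were opposite without GABA replicate 2 and 7 without GABA replicate 3 or control replicate 2. Since nearly all listed genes are called and parents lean lower, these counts are a description, and pairs that share a parent are not independent. Processed pairs had 25 in the same and 8 in opposite directions, and unprocessed pairs 9 and 3, and the difference between the classes was not tested. The absolute change of the copy was the larger in 48 of the 51 pairs, with medians of 0.78 for copies and 0.29 for parents. Most copies stood at lower levels than their parents. Among all genes tested, lower levels went with larger absolute changes, with medians of 1.62 below 2 CPM and 0.31 from 50 CPM upward. The part of level and of the selection of the listed genes in this difference was not tested. Where at least 50% of the copy's windows were shared, 15 pairs had the same and 2 opposite directions, and below that share 19 and 9. With the parent taken by sequence, 62 pairs were tested, 38 in the same and 16 in opposite directions. Of the 13 pairs that this adds, 5 had the same direction, 6 were opposite and in 2 the parent did not pass.

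**Figure D3:**
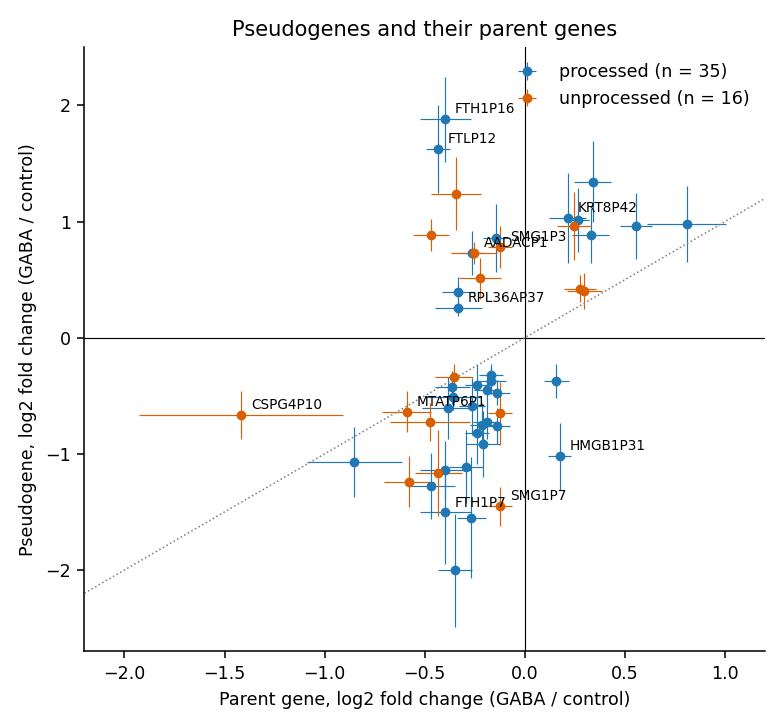
Each point is 1 of 51 pseudogenes (35 processed in blue, 16 unprocessed in orange), with the log2 fold change of its parent gene on the horizontal and its own on the vertical axis. Bars are the SE of each log2 fold change, and the dotted line marks equal change. Most points lie farther from 0 vertically than horizontally. The upper left corner holds the 9 called pairs with a higher copy and a lower parent. PKD1P3 and SMG1P3, whose parents did not pass, also lie there.

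Of the 11 opposite pairs, 9 had a higher copy and a lower parent. Beside the ferritin, RPL36A, RPS28 and RPSA pairs these were AADACP1, ANKRD33BP1, NBEAP1 and GUSBP5. AADAC encodes arylacetamide deacetylase, an esterase of the liver endoplasmic reticulum. AADACP1, an unprocessed copy 29.1 kb from AADAC on chromosome 3, stood at 32.8, 37.4 and 35.0 CPM in the control and at 56.8, 57.6 and 59.7 CPM in the GABA libraries (log2 fold change 0.73, SE 0.10, edgeR adjusted p = 0.000104). AADAC stood at 48.6, 52.8 and 58.1 CPM in the control and at 50.6, 43.3 and 40.0 CPM with GABA, so its groups overlapped. Its log2 fold change was -0.25 (SE 0.11, edgeR adjusted p = 0.0469), and 4 of the 6 fits without 1 library lost that call, with adjusted p up to 0.195. AADACP1 differs from AADAC at 227 of 1182 aligned coding bases and shares 0.0467% of its windows, so their reads can be separated. Bases 11 to 100 of the coding sequence are shown with differing bases in capitals, because they show how far this copy has moved from its parent:
AADAC: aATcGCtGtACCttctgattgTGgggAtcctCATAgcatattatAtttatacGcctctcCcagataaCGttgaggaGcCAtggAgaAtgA
AADACP1: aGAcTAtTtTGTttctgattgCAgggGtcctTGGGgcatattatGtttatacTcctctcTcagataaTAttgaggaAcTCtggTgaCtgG
ANKRD33BP1 rose (0.88, SE 0.14, edgeR adjusted p = 0.000302) while ANKRD33B fell (-0.47, SE 0.09, adjusted p = 0.001). NBEAP1 rose (1.24, SE 0.32, edgeR adjusted p = 0.00432) while NBEA fell (-0.34, SE 0.13, adjusted p = 0.0209), and 3 of the 6 fits without 1 library lost the call of NBEA. GUSBP5 rose (0.86, SE 0.29, edgeR adjusted p = 0.0153) and GUSB, the lysosomal beta-glucuronidase gene, fell (-0.15, SE 0.06, adjusted p = 0.0411), with overlapping groups for the copy. The call of GUSBP5 was lost in 2 and that of GUSB in 5 of the 6 fits without 1 library.

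The reverse pattern occurred in HMGB1P31 and GAPDHP1. HMGB1P31, a copy of the gene of a chromatin protein, stood at 4.13, 3.76 and 4.32 CPM in the control and at 1.28, 2.45 and 2.24 CPM with GABA (log2 fold change -1.02, SE 0.29, edgeR adjusted p = 0.00695). HMGB1 rose from 423 ± 10.7 to 477 ± 9.36 CPM (0.17, SE 0.06, edgeR adjusted p = 0.0158), a call lost in 2 of the 6 fits without 1 library. GAPDHP1, from the glycolytic enzyme gene GAPDH, overlapped between groups (-0.37, SE 0.14, edgeR adjusted p = 0.0262, lost in 3 of the 6 fits without 1 library and -0.24 without GABA replicate 3), and the rise of GAPDH (0.16, SE 0.06, adjusted p = 0.0281) was lost in 5 of them. The other glycolysis copies with a parent by symbol, TPI1P2 and PGAM1P7, rose by 1.00 and 1.02 on the log2 scale.

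Many members lie inside another gene, and some moved with it. On the same strand 39 members lie within the span of another gene, which was listed for 12. In 7 both were called, 6 in the same direction and 1 in opposite directions. On the opposite strand these numbers were 50, 15, 13, 9 and 4. Of all genes tested 47.6% were called higher and 51.2% lower, so these counts are a description. KRT8P42, a copy of the keratin gene KRT8 inside SGK1, the gene of a serum- and glucocorticoid-induced kinase, had 10, 27 and 9 reads in the control and 36, 33 and 26 reads with GABA, and control replicate 2 overlapped the GABA group. Its log2 fold change was 1.03 (SE 0.39, edgeR adjusted p = 0.0238), 1.73 without control replicate 2, and lost in 3 of the 6 fits without 1 library. SGK1 went from 812 ± 19.8 to 1557 ± 38.9 CPM (0.94, SE 0.06, edgeR adjusted p = 8.49e-07) and KRT8 from 6548 ± 903 to 7595 ± 419 CPM (0.21, SE 0.09, adjusted p = 0.0379). The call of KRT8 was lost without any 1 of the GABA libraries, and its log2 fold change was 0.10 without control replicate 3. HMGB1P31 lies in ACYP2, an acylphosphatase gene that fell (-0.75, SE 0.16, edgeR adjusted p = 0.00168), and so had the direction of the gene around it rather than of its parent. RPL36AP37 was the exception on the same strand, with PLEKHA7 lower (-0.55, SE 0.23, edgeR adjusted p = 0.0333) but overlapping between groups. AADACP1 lies on the opposite strand within AADACL2-AS1, which rose (1.86, SE 0.45, edgeR adjusted p = 0.00338) on 3, 2 and 4 reads against 12, 10 and 12. RPL5P4 in ZMYM4 fell (-1.55, SE 0.52, edgeR adjusted p = 0.0148) with 132 reads in control replicate 3 against 34 and 32 in the other controls, and the call was lost without that library (-0.54, adjusted p = 0.0995) and without GABA replicate 2 or 3. The part of the surrounding gene's RNA in any of these counts was not tested.

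**Figure D4:**
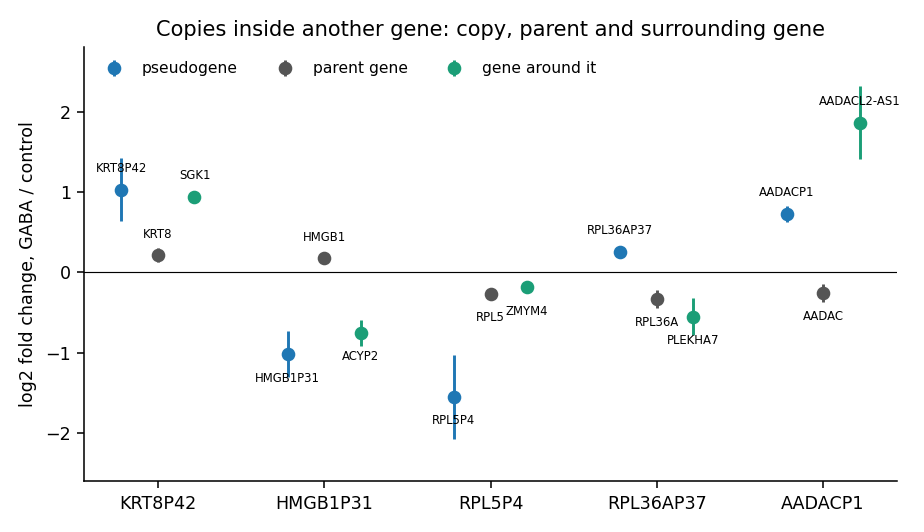
For 5 pseudogenes inside another gene, points give the log2 fold change of the copy (blue), its parent gene (grey) and the gene around it (green), with bars for the SE. KRT8P42, HMGB1P31, RPL5P4 and AADACP1 lie on the same side of 0 as the gene around them, and RPL36AP37 does not.

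The 41 members that were not tested had at most 1.78 CPM on average. They were 26 processed, 14 unprocessed and 1 unitary, 25 had the higher mean with GABA and 16 the lower, and the groups did not overlap for 38, against 92.5% of all listed genes. No read was counted in the controls for 6 of them, among which KRT8P30 had 12, 5 and 8 reads with GABA, and none with GABA for 5, among which AOC4P had 3, 3 and 4 reads in the controls. NSFP1 had 2, 3 and 1 reads in the control and 13, 63 and 1 reads with GABA, so GABA replicate 2 alone carried most of its reads.

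Of 24 pseudogenes studied in cancer, 3 were in the files. WTAPP1 had 20, 18 and 8 reads in the control and 0, 1 and 0 reads in the GABA libraries and was below the filter. PDIA3P1, a copy of a disulfide isomerase gene, went from 57.5 ± 3.31 to 49.2 ± 1.95 CPM (log2 fold change -0.23, SE 0.09, edgeR adjusted p = 0.0341). ANXA2P2, a copy of the annexin A2 gene, went from 310 ± 47.5 to 267 ± 12.3 CPM with overlapping groups (-0.21, SE 0.10, edgeR adjusted p = 0.0443). The calls of PDIA3P1 and ANXA2P2 were each lost in 4 of the 6 fits without 1 library and with DESeq2, and without control replicate 3 the log2 fold change of ANXA2P2 was -0.09. Among nonsense-mediated decay factors in the files, UPF1 (0.58), SMG5 (0.34) and SMG9 (0.34) rose, UPF3A (-0.30) fell and SMG1 did not pass, with edgeR adjusted p of 0.00988 or less for those that changed. Many pseudogene transcripts carry early stop codons, and any part of this pathway in their changes was not tested.

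Some processed copies had no stop codon or frameshift in the part aligned to the parent's coding sequence. Aligned to the coding sequence of the parent (by symbol, or else by sequence), 120 processed members could be read, 65 of them over at least 95% of its length, and 27 of those had neither a stop codon nor a frameshift. Of the 120, 58 had an in-frame stop codon, 71 a frameshifting gap and 80 at least 1 of the 2 kinds of damage. FTH1P16, RPS2P5, RPL41P1, RPS28P7 and EEF1A1P5 were among the intact ones. Of 64 unprocessed members read this way, 15 were aligned over at least 95%, and 2 of those were intact. Intact here refers to the aligned part, and the start codon of the copies was not checked. Protein was not measured in these files.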

How the data were processed

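The authors deposited read counts per gene, and per the submitters' processing notes CASAVA 1.8, Bowtie 0.12.2 and the hg38 build were used. The program that made the counts, its use of strand and its treatment of reads with several matches are not given in the sources used here. The files hold 5187 genes, and the members and lists used here were chosen with earlier results of these data known. Gene types, exons and transcripts came from GENCODE release 29. GABA and control libraries (3 each) were compared on all listed genes with edgeR 4.0.16 in R 4.3.3 (filterByExpr with a minimum count of 10 and a minimum total of 15, TMM, robust quasi-likelihood test, Benjamini-Hochberg threshold 0.05). The same 6 libraries entered every fold change. Library totals limit precision as given with the results, and intervals from replicates cover these samples only. The parent by sequence was the best blastn 2.17.0 match (E-value up to 1e-10) over at least 50% of the member. Code for the test was tested on simulated data. Genes were named by rule: the 8 largest rises and falls among members averaging 1 CPM or more whose groups did not overlap, the 8 highest levels per kilobase, their listed parents, 8 opposite pairs with the smallest p, and members of fixed lists. The other genes named, in families of several copies, among unitary members, inside other genes or of low count, were chosen after their values were seen. Alternatives were other scalings, limma-voom (limma 3.58.1), DESeq2 1.42.0, other filters and thresholds, a replicate block, members without exon overlap, and leaving out each library. Some genes and sequences are not reported here.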

Additional observations from a re-analysis of the deposited data

How the results depend on the processing

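No pseudogene changed sign in any fit. Of the 170 members, 125 were called in each of the 6 fits without 1 library, and 28 moved by more than 1.5 times in at least 1 of them. Without 1 library the fits called 79 to 93 pseudogenes higher and 71 to 81 lower, 43 to 51 processed higher and 43 to 51 lower, and 29 to 36 unprocessed higher and 21 to 25 lower. Pairs with the same direction went from 34 to between 21 and 31, and opposite pairs from 11 to between 5 and 11. Adding an absolute log2 fold change of 1 or more left 32 pseudogenes higher and 35 lower, 21 processed higher and 21 lower, 7 unprocessed higher and 11 lower, 0 pairs in the same direction and 0 in opposite directions. Among members without exon overlap 56 pseudogenes were higher and 61 lower, with 14 unprocessed higher and 16 lower, so that the order of the unprocessed counts turned, as it did at an absolute log2 fold change of 1 or more. The cause was not tested. Among members under 50% shared windows, an alternative chosen after seeing the data, 61 pseudogenes were higher and 50 lower, 31 processed higher and 27 lower, and 19 pairs had the same direction. The processed order turned there, with DESeq2 (61 higher, 57 lower) and without GABA replicate 3 (45 and 43). The share of higher genes among all called was 48.2%, and 54.8% with DESeq2 or 53.7% with DESeq2 size factors. Deviations from the group means hardly correlated between libraries of the same replicate number (0.0003, -0.089 and -0.036). These values alone cannot exclude that such libraries were prepared together. The fit with the replicate block called 85 pseudogenes higher and 84 lower, 46 processed higher and 52 lower, and 32 unprocessed higher and 27 lower. It had 33 pairs in the same and 8 in opposite directions. Windows unique in the genome were not run, and transcript windows took their place. Low counts and sequence shared between copies limit the members.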
